A study of Mus musculus with 78 samples.

Results

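Cirbp and Rbm3 encode small RNA-binding proteins whose transcripts are induced by mild cooling, and both transcripts were followed in mouse lung over 12 h of sleep or of sleep deprivation. The members are the probe sets whose only gene symbol in the array annotation is Cirbp or Rbm3, which are 4 of the 35556 probe sets and 2 of the 18820 genes that have a probe set with a single symbol. Cirbp has 1 probe set (10364712, mean log2 intensity 9.85 over 78 mice) and Rbm3 has 3 (10556113, mean 11.69, 10358454, mean 11.32, and 10603469, mean 11.08). The brightest of the 3 stands for Rbm3 below. One more probe set names Rbm3 together with the antisense gene Rbm3os, had group means between 5.46 and 5.62, and was not used.

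The arrays (Affymetrix Mouse Gene 1.0 ST) each carried the lung RNA of 1 of 78 male C57BL/6J mice, and values are log2 intensities, on which a difference of 1 is a doubling. Mice were sleep-deprived by gentle handling from lights on for 3, 6, 9 or 12 h (9, 9, 9 and 8 mice), and are set against mice left to sleep over the same 3, 6, 9 or 12 h (9, 7, 9 and 9 mice) and against 9 undisturbed baseline mice killed at lights on (0 h). All of them, baseline included, were about 10 weeks old and fed only in the dark during 14 days of acclimation. Sleep deprivation by handling keeps an animal awake and also active, and the 2 cannot be told apart here. The mice of the sleeping groups had the opportunity to sleep and did not sleep throughout.

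Both proteins bind RNA through an RNA recognition motif followed by a tail rich in glycine, and both act on the stability, the polyadenylation and the translation of other transcripts. Their mRNAs rise when cells are cooled by a few degrees and fall when they are warmed, so that in mammals they follow the daily rhythm of body temperature. Cirbp binds transcripts of the clock, Clock among them, and Rbm3 is known for protecting synapses in cooled mouse brain. In rodent brain Cirbp is among the transcripts known to decline with sleep loss. Body temperature was not analysed here.

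Lung markers were high on every array. Surfactant protein Sftpc lay between 13.08 and 13.37 in every mouse, and the mean of 12 lung genes was 11.96 ± 0.07 in sleep-deprived and 11.94 ± 0.06 in sleeping mice (SD, n = 35 and 34). Array medians ran from 6.45 to 6.78. Laid along the array numbers in the titles, the order of conditions would place 15 arrays in a neighbouring condition. Arrays 80 and 81 lie past its end and have no place in it. Array 80 lay closest to its own group, 6 h of sleep, and is counted with the 62 others. Compared with group profiles built without the array in question, these 15 arrays lay closest to the condition of their number and array 81 to 6 h of sleep, while 59 of the 62 others lay closest to the group in their title. The title's condition is used throughout. The 16 arrays left out below are those 15 and array 81. Where leaving them out carried a difference, gap or correlation of Cirbp and Rbm3 across its threshold, both values are given. Other values shifted too without crossing, and some of them are given with all arrays only. Without the 16 arrays the slope of Rbm3 in sleep, for example, was 0.51 (adjusted p = 2.15e-07 from limma). Likeness to other genes, the gene and marker lists, the other Rbm3 probe sets and the other alternative fits, the B cell fit included, used all arrays only. Whether those change without the 16 arrays was not tested. Array 27, a mouse sleep-deprived for 12 h, stood apart by its T cell genes (9.39, next highest mouse 7.42) and its genes of dividing cells (8.29, next 7.01), with Cirbp at 9.44 and Rbm3 at 11.66.

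In the GRCm38.p6 annotation of RefSeq, Cirbp lies at chr10:80165990-80172786 and Rbm3 at chrX:8138975-8145880. A pseudogene, Rbm3-ps, is annotated at chr1:150264926-150266073. Positions of the probe sets were not used here, so which of the 3 Rbm3 probe sets can also bind transcripts of near-identical copies is uncertain. A promoter sequence was matched for 1 of the 2 genes. For Cirbp the table gives 2 start sites, both inside the annotated gene, and the 250 bases before the first are shown because they hold the letters of the mild cold response element described for Cirbp:
Cirbp promoter, chr10:80167589-80167838, plus strand, GRCm38.p6: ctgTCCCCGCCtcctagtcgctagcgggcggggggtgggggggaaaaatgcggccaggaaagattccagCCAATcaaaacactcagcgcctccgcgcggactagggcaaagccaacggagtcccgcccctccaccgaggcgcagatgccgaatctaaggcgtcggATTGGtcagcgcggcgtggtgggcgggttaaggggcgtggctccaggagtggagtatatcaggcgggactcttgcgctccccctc
The capitals mark TCCCCGCC, at -247 from the start site, and CCAAT boxes at -181 and, on the other strand, at -85. TCCCCGCC was searched on both strands and occurs in 4.6% of the 32851 promoter windows of this length, and CCAAT in 33.8%. The window also holds 3 GC boxes (GGGCGG, in 32.7% of windows), none of which overlaps the marked letters. It has no match to the E-box CACGTG (6.0% of windows) or to GAANNTTC, an arrangement found in heat shock elements (6.7%). The 250 bases before the second start site, chr10:80167921-80168170, have 4 GC boxes and no match to the other motifs. These matches are letters in a window, and no binding was measured.

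Sleep deprivation left both transcripts below their level in sleeping mice. Over all hours Cirbp had a lowest, median and highest log2 intensity of 8.73, 9.54 and 10.39 in sleep-deprived mice, against 9.05, 10.22 and 10.73 in sleeping mice. Rbm3 had 10.96, 11.39 and 12.10 in sleep-deprived mice, against 11.19, 12.03 and 12.25 in sleeping mice. The groups overlapped for both genes when the hours were pooled. Cirbp averaged 9.54 ± 0.44 in sleep-deprived and 10.18 ± 0.38 in sleeping mice (SD, n = 35 and 34), and fell by 0.63 on the log2 scale, a 1.55-fold lower level (SE 0.10, adjusted p = 3.94e-06 from limma). Rbm3 averaged 11.43 ± 0.29 in sleep-deprived and 11.96 ± 0.23 in sleeping mice (SD), and fell by 0.53, which is 1.44-fold lower (SE 0.06, adjusted p = 1.26e-08 from limma). Of all probe sets, 2.89% were lower at the same threshold, an adjusted p under 0.01. Ordered by p-value, Rbm3 stood at place 6 and Cirbp at place 99 among the 35556 probe sets.

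**Figure D1:**
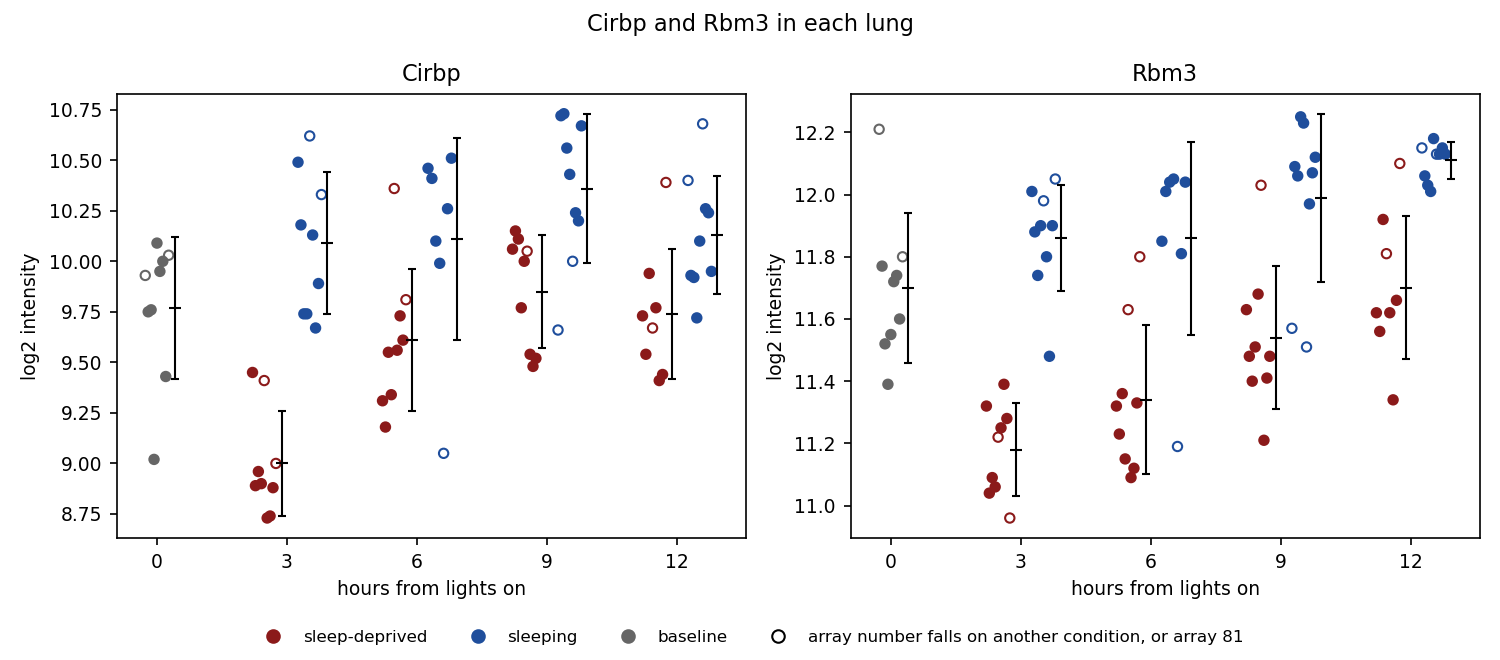
Log2 intensity (vertical axes) of Cirbp and Rbm3 of single lungs, by hours from lights on (horizontal axes), with sleep-deprived mice in dark red left of sleeping mice in blue and baseline mice in grey at 0 h. Points are mice, open points are the 16 arrays described in the text, and bars are the mean and SD of 7 to 9 mice. At 3 h all sleep-deprived mice lie below all sleeping mice for both genes, and at 6 h the lowest sleeping mouse, at 9.05 for Cirbp and 11.19 for Rbm3, is an open point.

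After 3 h both genes were lower in sleep-deprived than in sleeping mice. Cirbp had a lowest, median and highest value of 8.73, 8.90 and 9.45 in sleep-deprived mice, against 9.67, 10.13 and 10.62 in sleeping mice. Rbm3 had 10.96, 11.22 and 11.39 in sleep-deprived mice, against 11.48, 11.90 and 12.05 in sleeping mice. All 9 sleep-deprived mice were below all 9 sleeping mice for each gene. How many of all probe sets separated in this way was not counted. Cirbp fell by 1.09 on the log2 scale, a 2.13-fold lower level (SE 0.16, adjusted p = 1.08e-06 from limma), and Rbm3 by 0.68, 1.60-fold lower (SE 0.10, adjusted p = 2.31e-06 from limma). At this hour 2.35% of probe sets were lower.

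From 6 h on the groups overlapped as labelled. After 6 h Cirbp had a lowest, median and highest value of 9.18, 9.56 and 10.36 in sleep-deprived mice, against 9.05, 10.26 and 10.51 in sleeping mice, and differed by -0.51 (SE 0.17, adjusted p = 0.156 from limma). Rbm3 had 11.09, 11.32 and 11.80 in sleep-deprived mice, against 11.19, 12.01 and 12.05 in sleeping mice, and differed by -0.52 (SE 0.11, adjusted p = 0.0124 from limma). Only 0.0366% of probe sets were lower at 6 h. The sleeping mouse on array 66, which is 1 of the 16 arrays, had the lowest value of its group for both genes. Without that mouse alone the difference of Rbm3 at 6 h was -0.63 (adjusted p = 0.00051 from limma), and it also passed without array 10, 28, 36, 51, 74 or 81.

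After 9 h Cirbp had 9.48, 10 and 10.15 in sleep-deprived mice, against 9.66, 10.43 and 10.73 in sleeping mice, and the difference of -0.50 did not pass (SE 0.16, adjusted p = 0.0339 from limma). Rbm3 had 11.21, 11.48 and 12.03 in sleep-deprived mice, against 11.51, 12.07 and 12.25 in sleeping mice, and was 0.45 lower (SE 0.10, adjusted p = 0.00408 from limma). At 9 h 1.41% of probe sets were lower. The call for Rbm3 was lost when array 2, 3 or 29 was left out (adjusted p = 0.0103, 0.0101 and 0.0104 from limma), and it did not pass for the other Rbm3 probe sets. After 12 h Cirbp had 9.41, 9.70 and 10.39 in sleep-deprived mice, against 9.72, 10.10 and 10.68 in sleeping mice, and differed by -0.40 (SE 0.16, adjusted p = 0.477 from limma). Rbm3 had 11.34, 11.64 and 12.10 in sleep-deprived mice, against 12.01, 12.13 and 12.18 in sleeping mice, and differed by -0.41 (SE 0.11, adjusted p = 0.0673 from limma). At 12 h 0.0534% of probe sets were lower. At this hour 7 of 8 sleep-deprived mice were below every sleeping mouse for Rbm3, and 4 of 8 for Cirbp. The same count over all probe sets was not made.

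Leaving out the 16 arrays, the differences at 6 h and 9 h were larger for both genes. Cirbp then differed by -1.04, -0.82, -0.68 and -0.38 at 3, 6, 9 and 12 h (adjusted p = 9.51e-08, 5.93e-05, 0.000219 and 0.24 from limma). Rbm3 differed by -0.61, -0.74, -0.64 and -0.48 (adjusted p = 8.62e-09, 4.23e-10, 4.08e-09 and 7.36e-05 from limma). With these 62 mice 2.76%, 0.858%, 2.64% and 0.225% of probe sets were lower at the 4 hours. Sleep-deprived and sleeping mice, apart at 3 h in either set of mice, then no longer overlapped at 6 or 9 h for either gene, nor at 12 h for Rbm3, whereas at 12 h 3 of 6 sleep-deprived mice were below all 7 sleeping mice for Cirbp. The share of all probe sets without overlap was not counted here either.

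**Figure D2:**
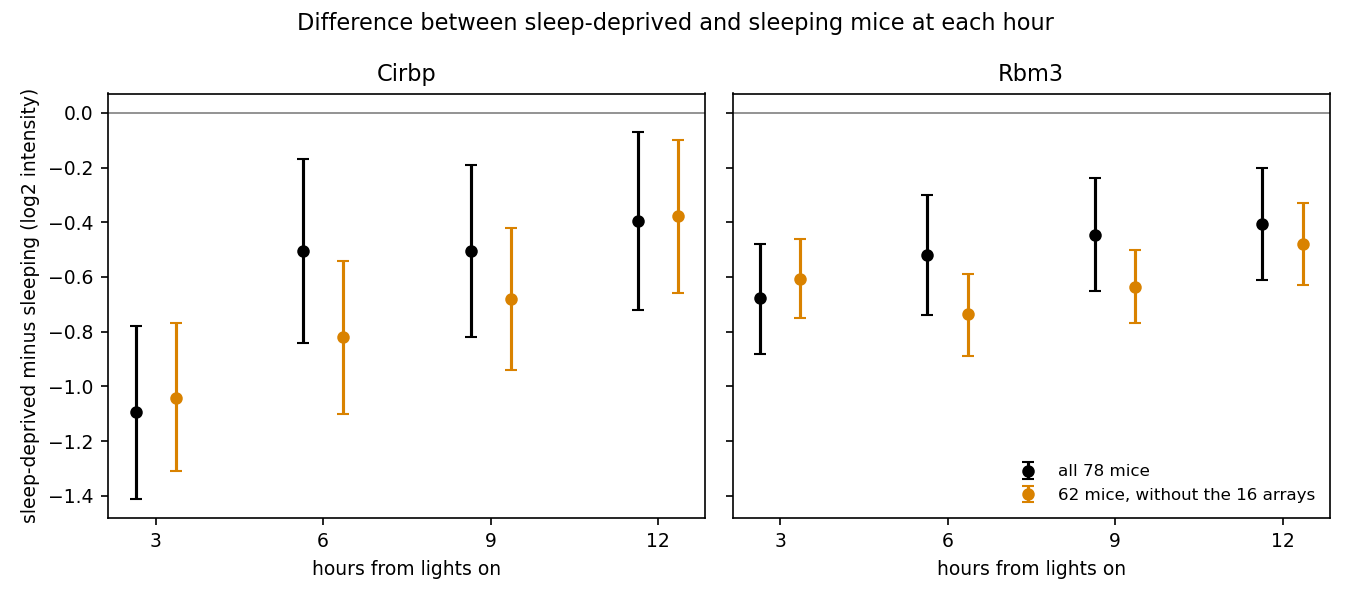
Sleep-deprived minus sleeping mice in log2 intensity (vertical axes) for Cirbp and Rbm3 after 3, 6, 9 and 12 h (horizontal axes), in black for all 78 mice and in orange for 62 mice without the 16 arrays. Bars are 95% confidence intervals from limma. The difference of Cirbp is -1.09 at 3 h and -0.40 at 12 h with all mice, and that of Rbm3 is -0.68 and -0.41.

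For neither gene did the test show that the difference depended on the hour. The F test over hours gave adjusted p = 0.162 for Cirbp and 0.566 for Rbm3 from limma, where 0.0562% of probe sets passed, and 0.114 and 0.358 without the 16 arrays. The gap between the 2 genes' intensities depended on the state at 3 h. The log2 intensity of Rbm3 minus that of Cirbp was 2.18 ± 0.29 in sleep-deprived and 1.77 ± 0.25 in sleeping mice (SD, n = 9 each), a gap wider by 0.41 in sleep-deprived mice (two-sided exact permutation test p = 0.00555, adjusted p = 0.0278 over 5 tests). With the 16 arrays left out it was 0.44 (adjusted p = 0.0408, exact permutation test). These are intensities of 2 probe sets, whose response to the amount of RNA was not measured, so the gap does not show which transcript fell further. At 6, 9 and 12 h the gap between the states was -0.01, 0.06 and -0.01, and over all hours 0.11 (adjusted p = 0.348, permutation test).

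All 3 Rbm3 probe sets were lower at 3 h. Probe sets 10556113, 10358454 and 10603469 fell by 0.68, 0.67 and 0.63 in sleep-deprived mice (SE 0.10 each), and over all hours by 0.53, 0.48 and 0.44, each past the threshold. Their correlations with each other over the 78 mice lay between 0.974 and 0.999, and between 0.953 and 0.997 after group means were taken out. At 9 h the 2 other probe sets differed by -0.33 and -0.30 (adjusted p = 0.0317 and 0.0379 from limma).

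Set against lights on, both transcripts were lower after 3 h of deprivation. At that hour the deprived mice, with Cirbp between 8.73 and 9.45 and Rbm3 between 10.96 and 11.39, stood against baseline mice with a lowest, median and highest Cirbp value of 9.02, 9.93 and 10.09 and Rbm3 value of 11.39, 11.72 and 12.21. After 3 h of deprivation Cirbp averaged 9.00 ± 0.26 in deprived and 9.77 ± 0.35 in baseline mice (SD, n = 9 each) and fell by 0.78 (SE 0.16, adjusted p = 0.00134 from limma). Rbm3 averaged 11.18 ± 0.15 in deprived and 11.70 ± 0.24 in baseline mice (SD) and fell by 0.52 (SE 0.10, adjusted p = 0.000797 from limma), where 0.56% of probe sets were lower. All comparisons with baseline share the same 9 baseline mice, 2 of which are among the 16 arrays. Baseline arrays lie in other runs of consecutive array numbers than the 9 h and 12 h arrays. In comparisons of 9 h or 12 h with baseline, run and hours therefore cannot be told apart.

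Later in deprivation neither gene differed from baseline at the threshold. Cirbp in mice deprived for 6, 9 and 12 h differed by -0.17, 0.08 and -0.03 from baseline (adjusted p = 0.868, 0.75 and 0.953 from limma). Rbm3 differed by -0.36, -0.16 and 0.00 (adjusted p = 0.0784, 0.244 and 0.997 from limma). At 6 h 0.045% of probe sets were lower than at baseline, and 12.9% and 3.54% passed in either direction at 9 h and 12 h. The 95% intervals at 12 h ran from -0.36 to 0.29 for Cirbp and from -0.21 to 0.21 for Rbm3. With those 16 arrays left out, Rbm3 was also lower after 6 h of deprivation, by 0.38 (adjusted p = 0.000145 from limma), beside 0.914% of probe sets.

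In sleeping mice both genes were above baseline on average, and 1 of the 8 comparisons passed. That 1 was at 12 h, where the run of array numbers and the hours cannot be told apart. Rbm3 averaged 12.11 ± 0.06 after 12 h of sleep and 11.70 ± 0.24 at baseline (SD, n = 9 each), 0.41 higher (SE 0.10, adjusted p = 0.00464 from limma), where 2.5% of probe sets were higher. This call was lost when array 39, 40, 52 or 55 was left out (adjusted p = 0.0131, 0.0173, 0.0116 and 0.0106 from limma), and passed without the 16 arrays, at 0.49. After 3, 6 and 9 h of sleep Rbm3 differed by 0.16, 0.16 and 0.28 from baseline (adjusted p = 0.601, 0.597 and 0.0808 from limma). Cirbp differed by 0.32, 0.34, 0.59 and 0.36 after 3, 6, 9 and 12 h of sleep (adjusted p = 0.478, 0.389, 0.0138 and 0.178 from limma). At 3, 6 and 9 h 0.00844%, 0.138% and 1.39% of probe sets were higher. The Cirbp difference at 9 h passed when array 10, 28 or 66 was left out (0.67, 0.63 and 0.59). Leaving out all 16 arrays it was 0.80 (adjusted p = 2.18e-05 from limma), and Rbm3 then also passed after 6 h (0.35) and 9 h (0.50) of sleep, hours at which 0.484% and 2.05% of probe sets were higher in these 62 mice.

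**Figure D3:**
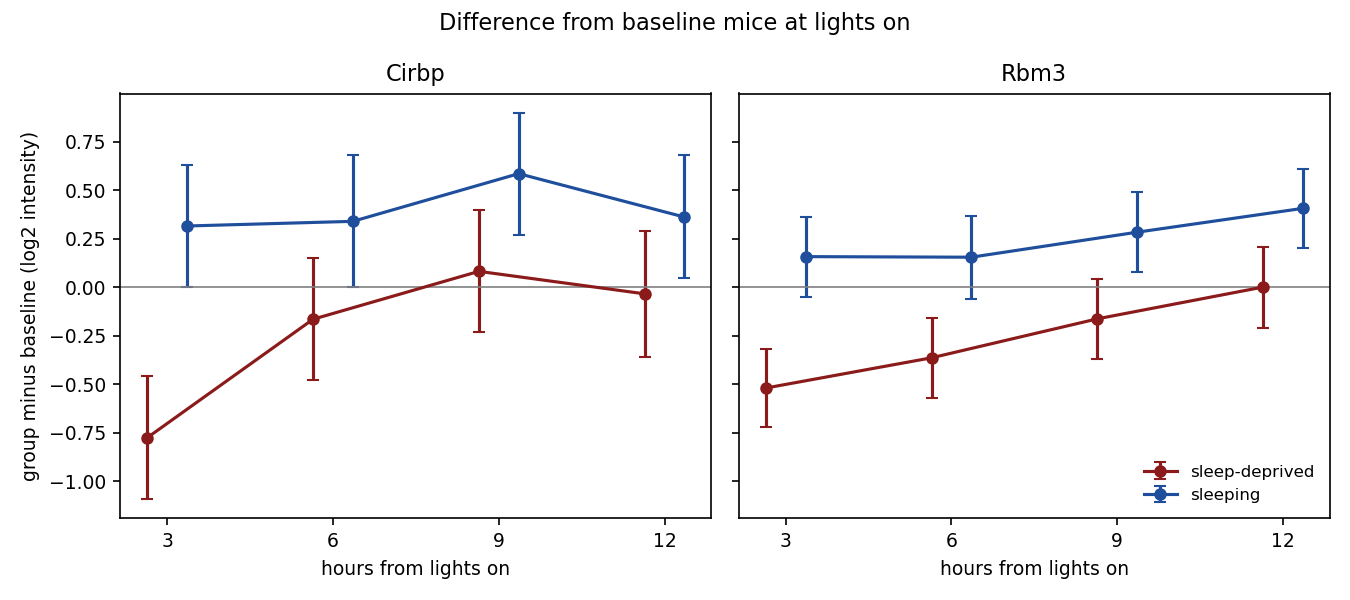
Difference from baseline mice in log2 intensity (vertical axes) for Cirbp and Rbm3 after 3, 6, 9 and 12 h (horizontal axes), in dark red for sleep-deprived and blue for sleeping mice, with 95% confidence intervals from limma. Sleep-deprived mice lie furthest below baseline at 3 h (-0.78 for Cirbp and -0.52 for Rbm3), and all points of sleeping mice lie above 0. At 9 h and 12 h the run of array numbers and the hours cannot be told apart.

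As a line over hours from baseline, Rbm3 rose by 0.38 over 12 h of sleep (SE 0.09, adjusted p = 0.00333 from limma), where 3.25% of probe sets rose, and Cirbp changed by 0.40 without passing (adjusted p = 0.102 from limma). The methods describe this test on baseline and sleeping mice and write a formula in which both states start from 1 shared intercept and each has its own slope. Fitted that way to all mice, the slope for sleep was 0.76 over 12 h for Cirbp (adjusted p = 0.000237 from limma). It was 0.64 for Rbm3 (adjusted p = 9.01e-07 from limma). In that fit sleep-deprived mice help to set the intercept, so their difference from sleeping mice enters these slopes, which are not rises above baseline. After 12 h of sleep the means of Cirbp and Rbm3 were 0.36 and 0.41 above baseline. Without baseline mice the slope of Rbm3 in sleep was 0.35 and did not pass (adjusted p = 0.0783 from limma). Over 12 h of deprivation the lines gave 0.13 for Rbm3 and 0.32 for Cirbp (adjusted p = 0.531 and 0.235 from limma), where 4.27% of probe sets rose. The step between 6 h and 9 h coincides with the border between 2 runs of consecutive array numbers. With 4 such runs as a block the slope of Rbm3 in sleep was 0.35 and no longer passed (adjusted p = 0.698 from limma), the slopes in deprivation turned to -0.38 for Rbm3 and -0.16 for Cirbp (adjusted p = 0.602 and 0.915 from limma), and the effects of run and hours cannot be told apart in that fit. Within the 4 runs, with all arrays, sleep-deprived minus sleeping mice gave -0.25, -0.67, -0.74 and -0.87 for Cirbp and -0.41, -0.46, -0.62 and -0.57 for Rbm3. The first 2 runs hold only 9 h and 12 h mice, and the last 2 hold the 3 h, 6 h and baseline mice. The 4 values are thus not repeats over the same hours.

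Ordered by mean level, both genes had mice deprived for 3 h lowest and a sleeping group highest. For Cirbp the order ran from 3 h, 6 h and 12 h of deprivation (9.00, 9.61 and 9.74) through baseline (9.77) and 9 h of deprivation (9.85) to 3, 6, 12 and 9 h of sleep (10.09, 10.11, 10.13 and 10.36). For Rbm3 it ran from 3, 6 and 9 h of deprivation (11.18, 11.34 and 11.54) through baseline and 12 h of deprivation (11.70 each) to 6, 3, 9 and 12 h of sleep (11.86, 11.86, 11.99 and 12.11). Of the 16 pairs of neighbours in these orders, 1 differed beyond its spread, namely Cirbp at 6 h over 3 h of deprivation (0.61, adjusted p = 0.00922, exact permutation test over 16 pairs). The other 15 had adjusted p between 0.445 and 0.991 by exact permutation tests. In the 62 mice left without the 16 arrays, 4 more of the same 16 pairs differed (adjusted p from 0.0137 to 0.0208, exact permutation tests), which were Cirbp at 9 h over 12 h of sleep (0.49) and Rbm3 at 9 h over 6 h of deprivation (0.25), at 6 h of sleep over 12 h of deprivation (0.35) and at 9 h over 3 h of sleep (0.30). The order of the means changes in these 62 mice, so that not all of these pairs are neighbours in it. Among the 9 groups, the SD of Rbm3 was smallest after 12 h of sleep (0.06), where 9 mice lay between 12.01 and 12.18.

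Mice that were high in one gene for their group tended to be high in the other. Over deviations of 78 mice from their group means, Pearson's r was 0.65 and Spearman's rho 0.58 (p = 1e-05 each, the smallest that 100000 permutations within groups can give), and r was 0.58 without the 2 mice farthest from the median of Cirbp. Without the 16 arrays r was 0.42 (n = 62, permutation p = 0.002), rho 0.34 (permutation p = 0.01), and r 0.33 without the 2 farthest mice. Most groups hold arrays from different runs of consecutive array numbers, and the permutations shuffled mice across runs. The part of run in these correlations was not tested. Within single groups r ran from 0.07 after 3 h of deprivation to 0.87 after 12 h of deprivation, and passed an adjusted p of 0.05 in 3 of 9 groups (12 h of deprivation, and 3 h and 9 h of sleep, adjusted p = 0.0437, 0.0498 and 0.0437, permutation tests). By Spearman's rho none of the 9 passed, with adjusted permutation p from 0.155 to 0.662. Without the 16 arrays none passed by either measure (6 to 8 mice a group, adjusted permutation p of r from 0.278 to 0.916). Of the 3 groups above, r was then 0.78 after 12 h of deprivation, 0.66 after 3 h of sleep and 0.27 after 9 h of sleep, and after 12 h of sleep it was 0.79, against 0.64 with all mice.

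**Figure D4:**
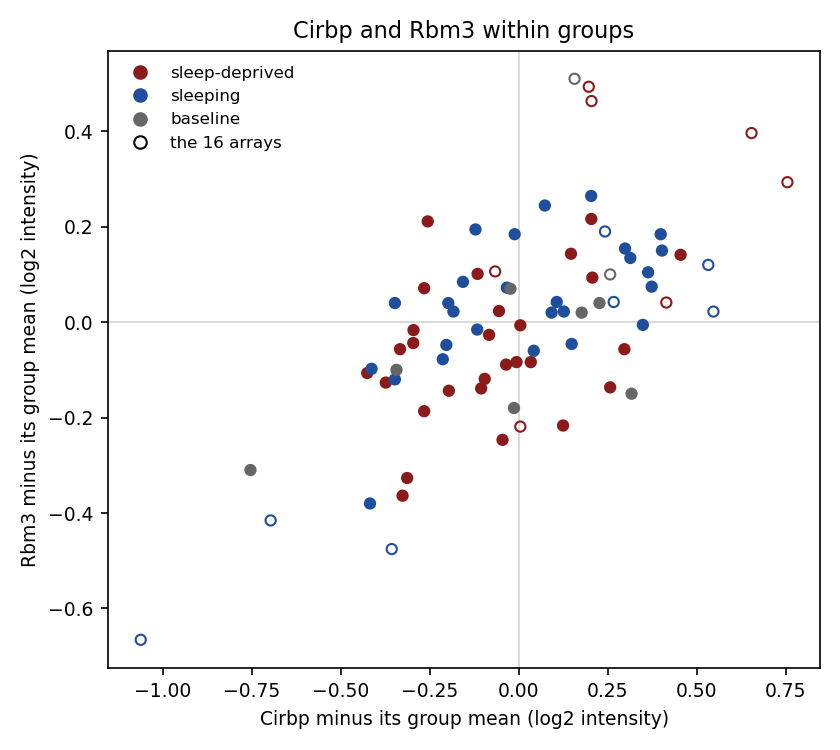
Rbm3 (vertical axis) against Cirbp (horizontal axis), each as log2 intensity minus the mean of the mouse's group, in dark red for sleep-deprived, blue for sleeping and grey for baseline mice, with the 16 arrays as open points. Pearson's r is 0.65 over all 78 mice and 0.42 over the 62 filled points, and open points lie at both ends of the cloud.

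Likeness to other genes was measured over 12315 genes with a mean log2 intensity of at least 6. Over the 9 group means the genes closest to Cirbp were Gipc3 (r = 0.985), Lancl1 (0.985), Mr1, which presents microbial metabolites to T cells (0.979), the ceramide synthase Cers4 (0.970) and the tRNA methyltransferase Trdmt1 (0.970), with Rbm3 at place 72 (0.906). Over the deviations of mice within groups they were 9930014A18Rik (0.820), Cers4 (0.786), Txnrd3, a thioredoxin reductase (0.752), Hnrnpd, which binds AU-rich transcripts (0.743), and the phagocyte oxidase subunit Cybb (0.726), with Rbm3 at place 40 (0.649). With all arrays Cers4 was thus near Cirbp on both measures, and it fell by 0.21 in sleep-deprived mice (adjusted p = 4.65e-05 from limma).

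For Rbm3 the closest genes over group means were Lrrc17 (r = 0.974), Srpx2 (0.969), Gm13375 (0.964), Pqlc3 (0.960) and Cmc1, a factor of cytochrome oxidase assembly (0.960), with Cirbp at place 48. Within groups they were Gnpda2, a glucosamine-6-phosphate deaminase (0.709), Cirbp at place 2 (0.649), Pqlc3 (0.625), Gm13375 (0.612) and Cd244a, a receptor of NK cells (0.607). Lrrc17 and Gm13375 fell by 0.51 and 0.47 in sleep-deprived mice (adjusted p = 3.03e-07 and 3.87e-09 from limma). These r are descriptions over points that share arrays and groups.

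Factors that control the splicing of transcripts with temperature, the Clk and Srpk kinases and the SR proteins they phosphorylate, had 3 calls. Of 19 measured, 3 rose in sleep-deprived mice over all hours and none fell (15.8% of the list), with a median difference of 0.06, beside 3.68% of genes higher and 4.35% lower. At 3 h 2 of the 19 rose (10.5%). The 3 that rose over all hours were Tra2a, a splicing activator (10.09 ± 0.20 in sleep-deprived and 9.82 ± 0.23 in sleeping mice, SD, difference 0.27, adjusted p = 0.000139 from limma), the kinase Srpk1 (0.08, adjusted p = 0.00244) and Srsf10, a splicing repressor of heat-shocked cells (0.14, adjusted p = 0.0055). Srsf1 differed by 0.13 (adjusted p = 0.0109). Among 12 measured hnRNP proteins and relatives, which like Cirbp and Rbm3 bind RNA, Taf15 rose by 0.16 (adjusted p = 0.00868 from limma) and none fell over all hours, with a median of 0.03. At 9 h 3 of the 12 rose and none fell, with a median of 0.14, beside 0.797% of genes higher and 2.08% lower at that hour. Tardbp, Hnrnph1 and Hnrnpa2b1 differed by 0.15, 0.17 and 0.13 over all hours without passing (adjusted p from 0.0153 to 0.0386).

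Transcripts reported as bound or stabilised by Cirbp or Rbm3 did not pass over all hours. Of 8 measured, none rose or fell, with a median of 0.02. Clock, a core activator of the circadian clock, differed by 0.18 (adjusted p = 0.0122 from limma), Rpa2, a DNA replication protein, by -0.08 (0.0464), the prostaglandin synthase Ptgs2 by 0.14 (0.0699) and Rtn3, a protein of synapse repair in cooled mouse brain, by 0.04 (0.109). Of 16 measured clock genes, Bhlhe41, a repressor, averaged 8.01 ± 0.56 in sleep-deprived and 8.60 ± 0.69 in sleeping mice (SD) and fell by 0.59 (adjusted p = 0.00412 from limma), and none rose. This is 6.25% of the list, near the 4.35% of all genes that were lower. At 3 h 1 clock gene rose (6.25%, beside 3.62% of genes), and at 9 h 2 fell (12.5%, beside 2.08% of genes). Nfil3 and Bhlhe40 differed by 0.45 and -0.23 over all hours (adjusted p = 0.0146 and 0.0254), where the list's median was -0.01.

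Heat-induced chaperones, which answer to warming, moved the opposite way to Cirbp and Rbm3 over all hours and at 3 h. Of 16 measured, 11 rose in sleep-deprived mice over all hours and none fell, beside 3.68% of genes higher and 4.35% lower. Their median difference was 0.32. At 3 h 14 of 16 rose, with a median of 0.71, beside 3.62% of genes higher and 3.74% lower at that hour. At 9 h 2 of 16 rose, beside 0.797% of genes, and none passed at 6 h or 12 h. Hsph1, a partner of Hsp70, was 1.99 higher at 3 h in sleep-deprived mice, against sleeping mice (SE 0.19, adjusted p = 5.14e-12 from limma), the hour at which sleep-deprived mice had their lowest mean Cirbp and Rbm3. At 6, 9 and 12 h Hsph1 differed by 0.595, 0.626 and 0.311 without passing (adjusted p = 0.159, 0.026 and 0.811 from limma). Fkbp4 and Hsp90aa1, an Hsp90 partner and an Hsp90, and Ahsa1, an activator of Hsp90, rose by 0.35, 0.41 and 0.32 over all hours (adjusted p = 2.32e-06, 5.07e-06 and 1.38e-05 from limma).

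In whole lung, fewer cells of a type and less RNA per cell cannot be told apart. Markers of B cells, like Cirbp and Rbm3, were lower in sleep-deprived than in sleeping mice over all hours. Of 11 measured, 11 fell, beside 4.35% of all genes lower and 3.68% higher. At 3 h and 9 h 10 and 9 of them fell, beside 3.74% and 2.08% of genes lower. None passed at 6 h or 12 h. Their mean log2 intensity ran from 6.79 to 8.40 in sleep-deprived and from 6.57 to 8.92 in sleeping mice. By group, this mean was lowest after 9 h of deprivation (7.16), and was 7.71 after 12 h of sleep and 8.10 at baseline. In a fit with the B cell level of each mouse as a covariate, Cirbp differed by -0.52 (adjusted p = 0.00743 from limma) and Rbm3 by -0.48 (adjusted p = 0.000155 from limma). Without the covariate the differences were -0.63 and -0.53 (adjusted p = 3.94e-06 and 1.26e-08 from limma). The B cell level is a mean of marker transcripts that itself differed between the states, and the part of B cells in the results was not tested. Of 11 T cell markers 2 fell (range of their mean 5.99 to 9.39 in sleep-deprived and 6.11 to 7.42 in sleeping mice), and of 11 markers of neutrophils and monocytes 2 fell (6.73 to 8.68 in sleep-deprived and 6.96 to 8.38 in sleeping mice) and 6 fell at 3 h, beside 3.74% of genes lower at that hour. The part of T cells, neutrophils and monocytes in the results was not tested. Of 11 liver markers 1 rose over all hours, with a median of -0.39, and at 3 h none passed, with a median of -2.05 and a mean level of 7.23 ± 0.38 in sleep-deprived and 8.76 ± 1.29 in sleeping mice (SD, n = 9 each). Liver markers ran from 6.72 to 10.53 in sleep-deprived and from 6.85 to 12.31 in sleeping mice, and their part in the results was not tested. They were highest on array 79 (12.31, 6 h of sleep), with Cirbp at 10.26 and Rbm3 at 11.81, and brown fat markers on array 76 (10.70, 3 h of sleep), with Cirbp at 9.67 and Rbm3 at 11.48. Of 12 lung markers 2 rose, and of 10 brown fat, 9 cardiac muscle and 11 dividing cell markers none passed (limma).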

How the data were processed

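The authors hybridized lung RNA to Affymetrix Mouse Gene 1.0 ST arrays, and the deposited values are log2 intensities after robust multi-array averaging (RMA) of all lung arrays together in R/oligo. The deposited values lack their decimal point. It was put back behind the leading digit, or behind the second digit of values that begin with 1, giving 2.27 to 13.85 over 35556 probe sets in 78 arrays. The values were not normalized again. Precision is limited by the number of mice, since arrays carry no depth. Gene symbols are those of GEO's platform annotation, with 21218 probe sets of 1 symbol, 1881 of several and 12457 of none. A gene with several probe sets is represented by the brightest.

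limma 3.58.1 (R 4.3.3) compared sleep-deprived with sleeping mice by state alone, as in the study, and 9 group means for all other contrasts. Slopes used hours as a number. P-values were adjusted by Benjamini-Hochberg over all probe sets, with a threshold of 0.01. Neighbouring groups, correlations and the gap between the genes were tested by two-sided permutation (exact, or 100000 resamples, threshold 0.05; Python 3.11.15, scipy 1.17.1). The fits were tested on simulated data. The members, the gene lists and the tests were chosen with earlier results of these data known. Named genes were the 5 most like each member on each measure, up to 4 of each pathway list with the smallest p, and Hsph1.

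Alternatives were time as a factor, blocks of 4 or 5 runs of array numbers, leaving out the 16 arrays or each array in turn, a filter at a mean log2 of 6, trended and robust variance, array weights, subtracted array medians, a B cell covariate, the other Rbm3 probe sets and other slope fits. Run blocks for baseline contrasts and slopes, and neighbours without the 16 arrays, were added after seeing the data. Promoter sequence is from RefSeq (GRCm38.p6). Other tools were numpy 2.4.6, pandas 2.3.3 and matplotlib 3.10.9.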

Additional observations from a re-analysis of the deposited data

Results flagged for a closer look

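Of 27 groups of values checked for a sample far from the others (Cirbp, Rbm3 and their difference in 9 groups), 3 held one, where chance gives about 1 in 20. The sleeping mouse on array 66 at 6 h was far below its group in both genes, with Cirbp at 9.05 (next lowest 9.99) and Rbm3 at 11.19 (next lowest 11.81). The baseline mouse on array 36 was far above its group in Rbm3, at 12.21 (next highest 11.80). Both are among the 16 arrays, and were nearest to 3 h of sleep deprivation and to 12 h of sleep in the check of array numbers.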

How the results depend on the processing

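Over all hours both genes were lower in sleep-deprived than in sleeping mice and passed under each alternative. The difference ran from -0.72 to -0.52 for Cirbp (11 alternatives) and from -0.62 to -0.44 for Rbm3 (13 alternatives). Of 347 alternative values over all results, 301 kept direction and side of the threshold, 24 came to pass, 9 ceased to pass and 13 changed sign. The cause of these changes was not tested. Of the fits with 1 array left out, this tally holds only those with the lowest and the highest value of each result. Calls that changed in other such fits, as for Rbm3 at 9 h, are not in it. Without the 16 arrays, Cirbp came to pass at 6 h (-0.82), at 9 h (-0.68) and after 9 h of sleep against baseline (0.80), and Rbm3 at 6 h (-0.74), at 12 h (-0.48) and against baseline after 6 h of deprivation (-0.38) and 6 h and 9 h of sleep (0.35 and 0.50), while the gap between the genes at 6 h was 0.08 and r within 6 h of deprivation and of sleep was -0.16 and -0.29. Of the neighbours, 3 pairs of sleeping groups changed order without passing (Cirbp at 12 h over 6 h, -0.27, and Rbm3 at 3 h over 6 h, -0.15, and at 12 h over 9 h, -0.01). With array weights, Cirbp passed at 9 h (-0.61) and after 9 h of sleep against baseline (0.69), and Rbm3 at 6 h (-0.60), at 12 h (-0.42), after 6 h of deprivation (-0.37) and after 9 h of sleep (0.39) against baseline. Cirbp after 9 h of sleep against baseline also passed with the filter on dim probe sets (0.59) and with array medians subtracted (0.60), under which Rbm3 after 12 h of deprivation differed from baseline by -0.0068. With 4 runs as a block Rbm3 passed at 6 h (-0.52) and slopes in deprivation were -0.16 for Cirbp and -0.38 for Rbm3. With 5 runs the slope of Rbm3 was -0.17 in deprivation. The slope of Rbm3 in sleep ceased to pass with 4 and 5 runs (0.35 and 0.36) and without baseline mice (0.35). That of Cirbp passed when sleep-deprived mice were fitted with the same intercept (0.76). At 9 h Rbm3 did not pass by the other probe sets (-0.33 and -0.30). With 1 array left out, Cirbp against baseline ran from -0.0113 to 0.13 after 9 h of deprivation, from -0.13 to 0.0117 after 12 h of deprivation and from 0.49 to 0.67 after 9 h of sleep. Rbm3 at 6 h ran from -0.63 to -0.49, and against baseline from -0.0561 to 0.0655 after 12 h of deprivation and from 0.37 to 0.47 after 12 h of sleep. No paired analysis was possible because the array numbers are not shared between groups. Intensities carry no count of reads, and contrasts of 9 h or 12 h with baseline could not be fitted with runs as a block.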
